A study of Homo sapiens with 6 samples.

Results

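The regions described here are the open chromatin peaks of human gene deserts, the long stretches of the genome that hold no protein-coding gene. Peaks were measured by ATAC-seq, which uses a transposase to cut and tag accessible DNA, in RKO cells, an established human colon cancer cell line with mismatch repair deficiency. The cells were grown at 5% O2 and treated for 16 h with 0.2 µM aphidicolin (APH), an inhibitor of the replicative DNA polymerases, or with the solvent DMSO. Cells of both conditions went through a DNase treatment and were frozen before tagmentation. There were 3 samples per condition, and the comparison asks how low replication stress alters chromatin accessibility. The peaks of the 6 samples were merged into 102784 regions wherever they overlapped by at least 1 bp. A region was counted as a gene desert region when it lay on chromosomes 1 to 22, when its midpoint was at least 300 kb from every protein-coding RefSeq gene of GRCh38, and when it was outside a window on the long arm of chromosome 8 and a window from 18 to 32 Mb of chromosome 5, which were left out. This rule used position only and gave 3744 regions, 3.64% of all regions.

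A gene desert is not empty DNA. Deserts can hold distal enhancers that act on a gene at a great distance, promoters of long non-coding RNA (lncRNA) genes, and clusters of genes that are not annotated as protein-coding, such as ribosomal RNA genes and the gene segments of immunoglobulin loci. Many deserts replicate late in S phase and lie in compact chromatin, where accessible sites are few.

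The starts of non-coding genes gave the desert sequences with the most direct annotation. The table of gene starts used here held 1190 starts on chromosomes 1 to 22 at least 300 kb from a protein-coding gene, and 39 of them (3.28%) lay inside a region. Of the 11363 starts of lncRNA genes nearer to coding genes, 2654 (23.4%) did so, as did 11433 of the 21156 starts of protein-coding genes (54.0%). The 39 starts fell in 31 gene desert regions. The promoter windows at the 3 strongest of these regions run from 250 bases before to 50 bases after the start and are shown to give the letters under the best-supported desert promoters (RefSeq, GRCh38.p14, written 5′ to 3′ along the gene). Capitals mark every match, on either strand, to the CCAAT box CCAAT or to the GC box GGGCGG. The first window, at chr5:8457515-8457814 on the minus strand, belongs to LINC02226 and lies in the same region as the start of MIR4458HG. The second, at chr19:27793891-27794190 on the minus strand, belongs to LINC00662, whose region also holds the start of LINC02987. The third, at chr6:57961298-57961597 on the plus strand, belongs to LOC101927293.
LINC02226: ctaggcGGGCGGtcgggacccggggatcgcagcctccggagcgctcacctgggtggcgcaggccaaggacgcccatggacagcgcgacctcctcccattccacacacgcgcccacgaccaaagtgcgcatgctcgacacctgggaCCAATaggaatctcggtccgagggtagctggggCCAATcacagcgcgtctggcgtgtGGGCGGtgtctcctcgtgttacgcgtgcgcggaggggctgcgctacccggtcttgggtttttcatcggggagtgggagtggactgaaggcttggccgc
LINC00662: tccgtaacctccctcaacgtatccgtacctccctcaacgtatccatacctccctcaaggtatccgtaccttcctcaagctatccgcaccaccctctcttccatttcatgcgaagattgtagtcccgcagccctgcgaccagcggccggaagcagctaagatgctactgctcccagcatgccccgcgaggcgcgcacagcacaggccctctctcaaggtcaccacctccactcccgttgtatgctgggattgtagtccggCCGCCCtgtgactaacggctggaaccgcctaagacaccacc
LOC101927293: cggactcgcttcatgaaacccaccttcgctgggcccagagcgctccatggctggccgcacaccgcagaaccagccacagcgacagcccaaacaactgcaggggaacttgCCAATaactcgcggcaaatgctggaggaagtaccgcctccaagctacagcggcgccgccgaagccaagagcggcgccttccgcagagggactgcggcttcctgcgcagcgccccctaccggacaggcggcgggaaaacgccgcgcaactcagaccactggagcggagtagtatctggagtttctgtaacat

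These 3 windows were rich in G and C, at 67.3% for LINC02226, 59.3% for LINC00662 and 63.3% for LOC101927293, with 31, 20 and 27 CG dinucleotides. The 39 windows at gene desert regions had a median GC content of 47.3% and a median of 4 CG dinucleotides, within a range of 0 to 37. The 1151 desert windows without a region at the start had medians of 40.3% and 2, and the 21156 windows of protein-coding genes had medians of 62.7% and 21. Of the 39 windows, 22 (56.4%) held CCAAT, against 34.4% of all 33725 windows on chromosomes 1 to 22. The GC box was found in 10 (25.6%) against 45.0%, and the AP-1 motif TGANTCA in 8 (20.5%) against 7.67%. The E-box CACGTG was in 2 windows (5.13%, against 7.18% of all windows) and the TATA box TATAAA in 4 (10.3%, against 11.6%). All 33725 windows had a median GC content of 58.7%, above that of the 39, and the part of composition in these shares was not tested. A match is a description of letters and not of a bound factor, and none of the 5 searched motifs contains another.

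The LINC02226 region, 687 bp wide on chromosome 5 between MTRR and SEMA5A, had values of 287, 401 and 375 in the DMSO samples and of 273, 338 and 249.6 in the APH samples. The value of a peak is the mean of the sample's signal over it, as deposited, and has no further unit. The groups overlapped. The LINC00662 region on chromosome 19, 1783 bp wide and the widest of all gene desert regions, had values of 153, 169 and 166 in DMSO and of 116, 127 and 112 in APH, so that every APH sample was lower. The LOC101927293 region on chromosome 6 had values of 106, 169 and 122 in DMSO and of 94.9, 109 and 101.25 in APH, with overlap between the groups. The limma change of the LINC00662 region was −0.46 ± 0.14 on the log2(value + 1) scale (SE, n = 3 per condition), with an adjusted p of 0.290 (limma, Benjamini-Hochberg over all regions tested).

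Most gene desert regions had no such annotation. Of the 3744 regions, 2578 (68.9%) overlapped no RefSeq gene, and 1038 (27.7%) overlapped a lncRNA gene, while lncRNA genes filled 19.7% of the desert length. Another 35 overlapped a ribosomal RNA gene or an immunoglobulin or T cell receptor segment without holding a gene start, and their median value was 32.9. No miRNA of the RefSeq table used here lay in a gene desert region. The median region value was 25.8 for those inside a lncRNA gene, 25.5 for those with no gene, and 30.5 for those with a gene start. Here a region's value is its mean over the samples with a peak. When every RefSeq gene, coding or not, set the distance, 85 regions remained at least 300 kb away.

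Open sites were sparse in the deserts and, outside coding genes, grew weaker with distance from them. The deserts covered 475 Mb, or 16.9% of chromosomes 1 to 22, and held 7.88 regions per Mb, against 41.3 per Mb elsewhere. This length includes long stretches without peaks, as in the 22.4 Mb gap from LINC02798 to H3-7 on chromosome 1, which held 4 gene desert regions. How much of the length can give peaks at all was not measured. The median distance from a gene desert region to the nearest region of any kind was 25.8 kb, against 6.41 kb for other regions. In DMSO, the median value of peaks was 56.0 ± 1.2 inside coding genes and 85.5 ± 1.2 within 10 kb of one (SD, n = 3). It was 41.6 ± 2.1 at 10 to 100 kb, 33.8 ± 1.7 at 100 to 300 kb, 31.0 ± 0.5 at 300 to 500 kb, 29.8 ± 1.3 at 500 to 1000 kb and 28.3 ± 1.1 at 1000 kb and over. The APH medians at 300 to 500 kb, 500 to 1000 kb and 1000 kb and over were 29.8 ± 0.8, 28.8 ± 0.9 and 28.3 ± 1.4. Across the 300 kb limit, the 307 regions at 280 to 300 kb had a median value of 25.3 and the 286 regions at 300 to 320 kb one of 26.4.

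**Figure D1:**
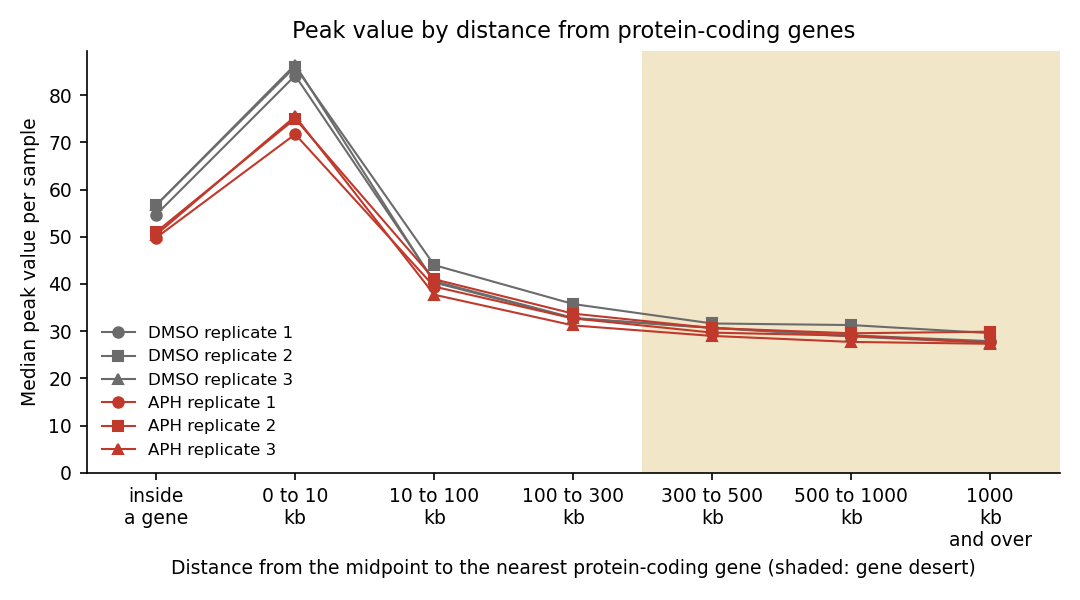
Median peak value of each of the 6 samples (y axis, deposited signal) in 7 classes of distance from the region midpoint to the nearest protein-coding gene (x axis), with DMSO in grey and APH in red and 1 symbol per replicate. The medians peak within 10 kb of a gene, where the DMSO mean is 85.5 and the APH mean 74.1, and the 2 conditions lie close together in the shaded deserts.

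Within every sample, desert peaks were weaker and narrower than the other peaks of chromosomes 1 to 22. The median desert value was 29.8, 31.3 and 29.6 in the DMSO samples, where the other peaks had medians of 52.7, 55.6 and 54.0. It was 29.2, 30.3 and 28.3 in the APH samples, against 48.5, 50 and 48.3. The mean log2 ratio was −0.79 ± 0.06 (SD, n = 6), a 1.73-fold lower median, and was negative in 6 of 6 samples (exact two-sided sign-flip permutation test, p = 0.031, the smallest that 6 samples can give). Desert peaks had median widths of 309 to 318 bp against 336 to 370 bp, a log2 ratio of −0.16 ± 0.04 (SD, n = 6; exact sign-flip permutation test, p = 0.031). The lowest peak value of a sample was 15.1 to 15.5, and the median desert peak was nearer to that floor than to the median of the other peaks. Of the gene desert regions, 91 (2.43%) reached a value of 100, against 17.3% of other regions.

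Desert peaks were also found again in fewer samples. A peak in all 6 samples was present at 1216 gene desert regions (32.5%), against 49.5% of the other regions of chromosomes 1 to 22, and 952 (25.4%) were found in 1 sample only, against 18.9%. The median value rose with the number of samples, from 22 at regions found in 1 sample to 40.7 at those found in 6. Even among regions found in all 6 samples, the other regions had a higher median of 70.3. The share of a sample's desert regions that both other replicates of its condition also had ranged from 53.8% (DMSO replicate 2) to 84.4% (APH replicate 3). For the other regions of the same samples this share ranged from 72.5% (APH replicate 2) to 85.6% (APH replicate 3). The samples with the fewest desert peaks, DMSO replicate 3 and APH replicate 3, thus had most of them backed by their replicates, at 82.7% and 84.4%.

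**Figure D2:**
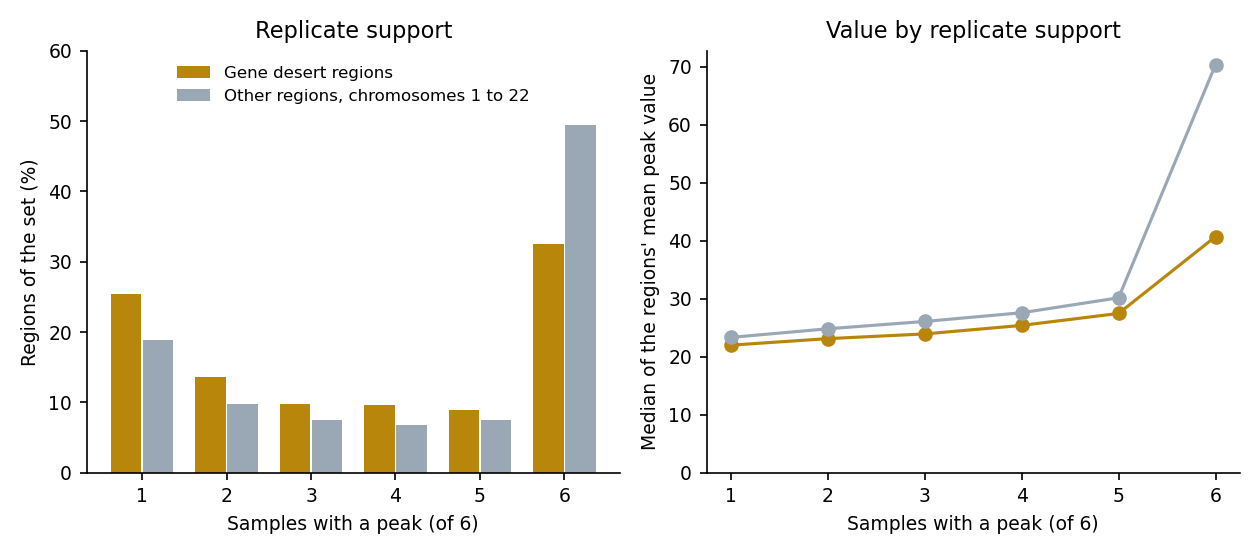
Left, percent of regions (y axis) by the number of samples with a peak (x axis), for gene desert regions and for the other regions of chromosomes 1 to 22. Right, the median of the regions' mean value (y axis) by the same number. Desert regions are more often found in 1 sample (25.4% against 18.9%) and less often in all 6 (32.5% against 49.5%), and stay below the other regions at each level of support.

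Most gene desert regions had another within 50 kb, and a minority lay apart. They were spread over 465 gaps between neighbouring coding genes, with a median of 6 and at most 54 per gap, and 43 gaps held 1 region. The 20 gaps with the most held 17.0% of the regions. The median distance to the next gene desert region was 27.0 kb. Another lay within 10 kb for 27.1% and within 50 kb for 66.4%, while 16.2% were over 100 kb from another. Joining neighbours at most 50 kb apart gave 2070 runs, of which 1258 were single regions and 102 held 5 or more, with 706 regions in all. The median distance from a coding gene was 500 kb, with quartiles of 377 kb and 736 kb, and 465 regions were at least 1000 kb away. The farthest lay 4841 kb from OR11H1 on the short arm of chromosome 22 (chr22:10687261-10687677), in an annotated V segment, with values of 59.7, 90.6 and 46.8 in DMSO and 55.7, 64 and 38.8 in APH.

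The run with the most regions was not a desert in the usual sense. It held 25 regions over 471 kb in the immunoglobulin heavy chain locus (IGH) at the end of chromosome 14, beyond TMEM121, where the rule found no protein-coding gene because antibody gene segments carry an annotation of their own. The gap from TMEM121 to the chromosome end held 163 such segments and 54 gene desert regions, the most of any gap, with 24 of them found in all 6 samples. The numbers of peaks in this gap were 42, 47 and 50 in DMSO and 51, 61 and 45 in APH, which overlapped. The run with the third most regions, 18 over 267 kb, was in the same locus. The run with the second most held 21 regions over 269 kb of chromosome 8 between HAS2, a hyaluronan synthase gene, and ZHX2, a zinc finger and homeobox gene, with 9 found in all 6 samples and values from 20.4 to 115. Counting ribosomal RNA genes and receptor segments as coding, a rule chosen after the data were seen, removed 108 of the 3744 regions.

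Chromosome 8 held the most gene desert regions, 391, and the most per Mb of desert, 18.7. Chromosome 14 followed with 11.2 per Mb, chromosome 20 with 10.9 and chromosome 10 with 10.4, and chromosome 21 had the fewest with 3.68. Outside the deserts, chromosome 8 had 48.2 regions per Mb, against 82.7 on chromosome 19. After the IGH gap, the gaps with the most gene desert regions were CSMD3 to TRPS1 (39) and KHDRBS3 to FAM135B (39) on chromosome 8, AGA to TENM3 (38) on chromosome 4 and KCNV1 to CSMD3 (37) on chromosome 8. Neither the number of copies of each chromosome in these cells nor the share of desert length that can give peaks was measured here. Their part in these densities was not tested.

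Of the 10 strongest regions found in every sample, 9 are described here, with mean values of 237 to 521. The strongest, 615 bp on chromosome 21 (chr21:8219742-8220356), overlapped no RefSeq gene but lay in the gap between LOC102723475 and LOC101927345 that holds copies of the 45S ribosomal RNA gene. Its values were 542, 546 and 556 in DMSO and 541, 547 and 397 in APH, of which only that of APH replicate 3 stood away from the rest. The second, 807 bp on chromosome 5 (chr5:98309714-98310520), lay 459 kb from the nearest coding gene between RIOK2, which encodes a kinase of ribosome maturation, and RGMB, which encodes a co-receptor of bone morphogenetic proteins. Its values were 347, 476 and 376 in DMSO and 348, 383 and 324 in APH. The third, 984 bp on chromosome 8 (chr8:110894077-110895060), lay 919 kb from the nearest coding gene between KCNV1, a potassium channel subunit gene, and CSMD3, with values of 306, 398 and 311 in DMSO and 398, 416 and 338 in APH.

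Of the other 6, the LINC02226 region was given above, and another at RNA45SN1 follows with the ribosomal RNA genes. The remaining 4 were at LINC01508 between GADD45G and DIRAS2 on chromosome 9 (mean value 289.9), between DAOA and EFNB2 (253) and between SLC10A2 and DAOA (241) on chromosome 13, and between DCN and BTG1 on chromosome 12 (237). None of these 4 held a gene start, and in each the groups overlapped, with log2 changes from −0.26 to −0.02, or from −0.017 to 0.26 without DMSO replicate 2. DMSO replicate 2 gave the highest value of all 6 samples in each of the 4.

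**Figure D3:**
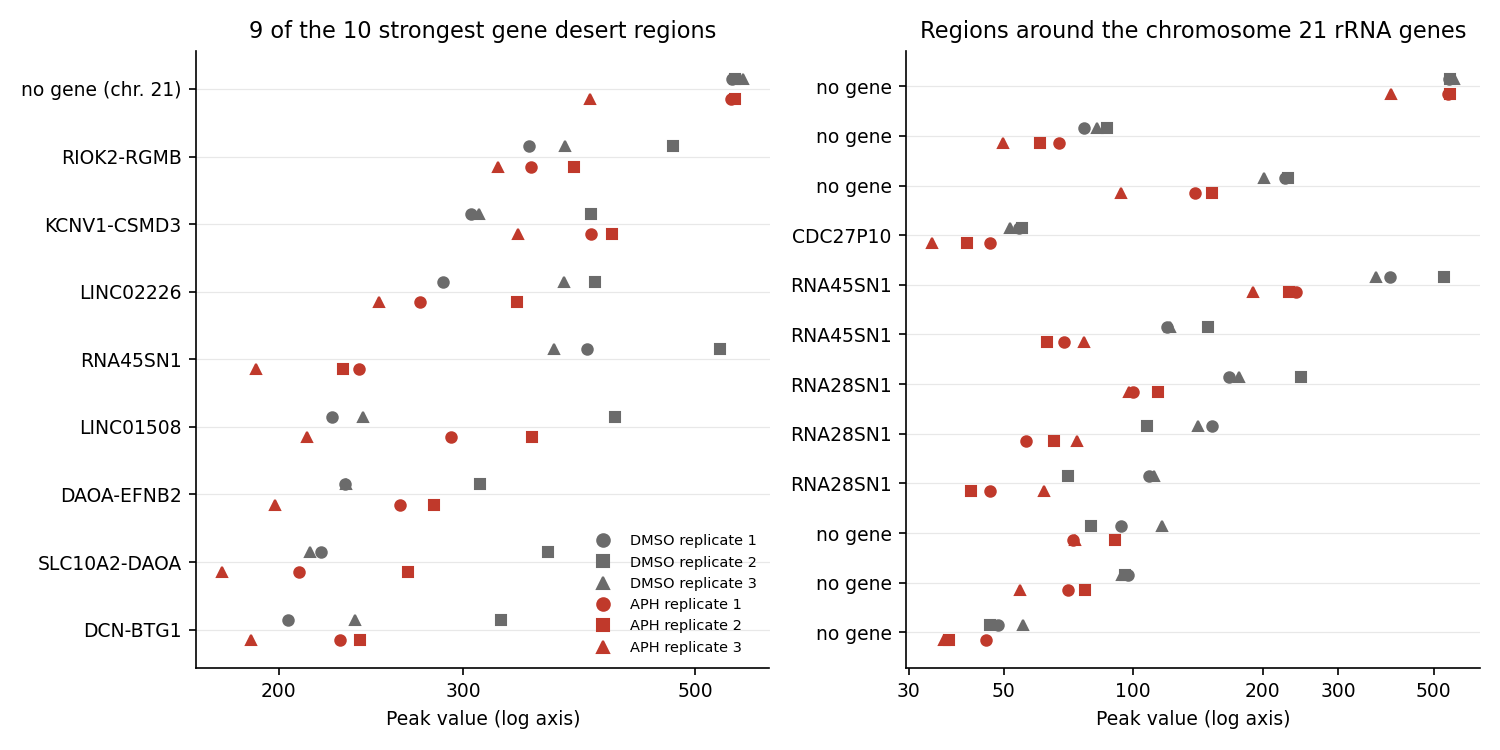
Peak value (x axis, log scale) of each sample at 9 of the 10 strongest gene desert regions (left, named by an overlapping gene or by the coding genes on either side) and at the 12 regions found in every sample in the chromosome 21 gap with ribosomal RNA genes (right, in genome order), with DMSO in grey above APH in red. On the right, APH lies below DMSO without overlap at 10 of the 12 regions, as at 14.4% of all regions tested, and on the left this holds at RNA45SN1 only.

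APH against DMSO was compared first over whole samples. The numbers of desert peaks were 1938, 2552 and 1661 in DMSO and 2635, 2864 and 1874 in APH, a difference of 407 (means 2050.3 ± 456.0 and 2457.7 ± 518.3, SD, n = 3 each; p = 0.3 in a two-sided exact permutation test). With 3 samples against 3, the smallest p of this test is 0.1. Within each condition the samples stood in the same order by desert peaks and by peaks in all, which numbered 65865, 77194 and 64511 in DMSO and 79807, 84510 and 70121 in APH. As a share of the sample's peaks, desert peaks made up 2.94%, 3.31% and 2.57% in DMSO and 3.30%, 3.39% and 2.67% in APH, a difference of 0.18 percentage points (exact permutation test, p = 0.6). DMSO replicate 2 was close to APH replicates 1 and 2 in this share, and APH replicate 3 to DMSO replicates 1 and 3. The sign of the share difference turned to −0.00311 without DMSO replicate 3, and to −0.29 when each sample was reduced to the same number of peaks. The length covered by desert peaks was 642, 817 and 548 kb in DMSO and 844, 912 and 609 kb in APH (difference 119 kb; p = 0.4 in the exact permutation test). The differences in number and length rose to 699 peaks and 209 kb without APH replicate 3 and to 658 peaks and 193 kb without DMSO replicate 2. They were 204 peaks and 56.8 kb without APH replicate 2 and 213 peaks and 58.4 kb without DMSO replicate 3. The difference in share was 0.40 percentage points without APH replicate 3, 0.36 without DMSO replicate 2, 0.09 without APH replicate 1 and 0.05 without APH replicate 2.

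The difference in mean value between the conditions was smaller in the deserts than over all other peaks, and near that at 10 to 300 kb from a gene. The mean value of desert peaks was 39.7, 44.3 and 40.7 in DMSO and 38.8, 41.0 and 37.3 in APH, a difference of −2.52 that was within the spread (exact permutation test, p = 0.3). The difference was −1.15 without DMSO replicate 2, −1.65 without APH replicate 3, −5.10 with every RefSeq gene setting the distance and −5.59 over peaks at or above the median value, and it turned to 3.30 with equal peak numbers. By distance, the log2 ratio of the APH to the DMSO mean value was −0.20 inside coding genes, −0.25 within 10 kb of them, −0.13 both at 10 to 100 kb and at 100 to 300 kb, −0.08 at 300 to 500 kb, −0.11 at 500 to 1000 kb and −0.09 at 1000 kb and over. The median log2 change of regions found in every sample was 0.05 at 100 to 300 kb and 0.05 at 300 to 500 kb. All other peaks had mean values of 79.4, 86.6 and 84.2 in DMSO and 70.5, 74.1 and 72.0 in APH, with every APH sample lower. The log2 ratio of the former to the latter was therefore −1.002, −0.97 and −1.05 in DMSO and −0.86, −0.86 and −0.95 in APH. The lowest APH sample was above the highest DMSO sample, and the means differed by 0.12, at the smallest p the design allows (exact permutation test, p = 0.1). This difference had the same sign under all 17 alternatives run, from 0.08 to 0.20. Where a gene desert region was found in every sample, the mean value was 48.5, 63.3 and 46.4 in DMSO and 54.3, 60.3 and 44.3 in APH, a difference of 0.22 (exact permutation test, p = 1) that turned negative in 9 of 17 alternatives, down to −6.12.

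**Figure D4:**
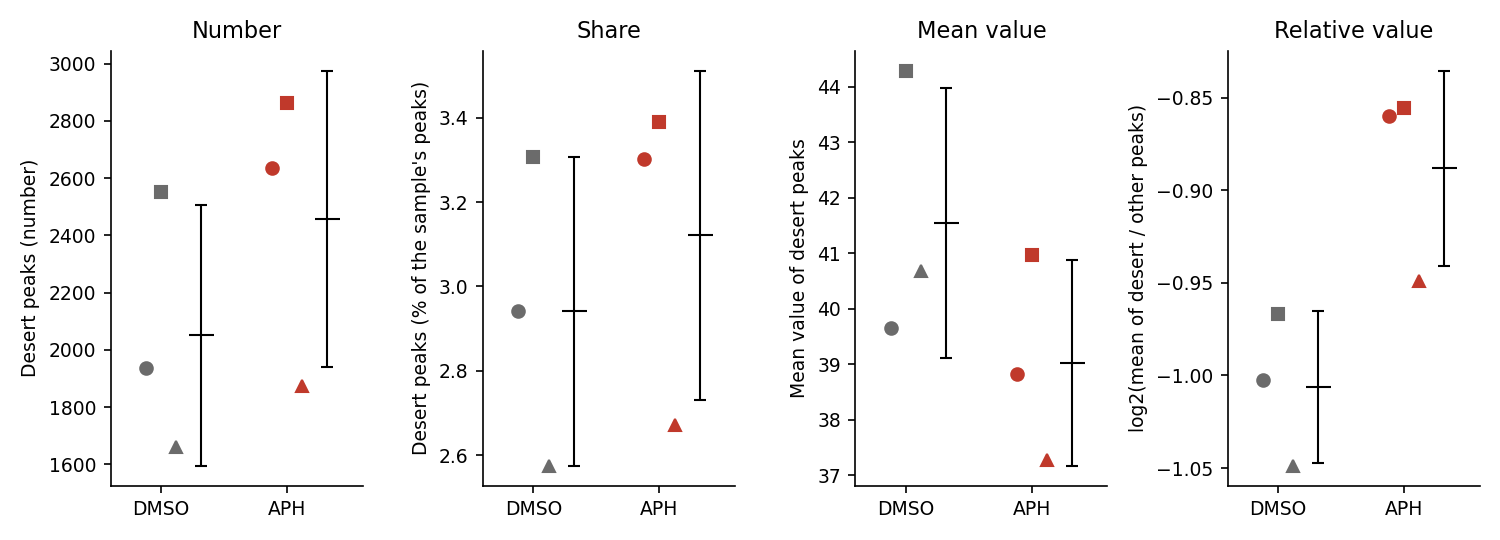
Desert peaks of each sample in number, in percent of the sample's peaks, in mean value and as the log2 ratio of their mean value to that of the other peaks (y axes, which do not start at 0), for DMSO (grey) and APH (red), with 1 symbol per replicate and black bars for mean ± SD (n = 3). The groups overlap in the first 3 panels, and in the fourth every APH sample is above every DMSO sample.

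Stronger regions had a lower median change, in deserts and elsewhere. Of the 3744 gene desert regions, 1216 had a peak in all samples and could be tested by limma, in a fit over all 50150 such regions. Their median log2 change was 0.05, with quartiles of −0.10 and 0.20, against −0.06 for all regions tested. When all tested regions were split into 10 equal classes of mean value, 26.0% of the gene desert regions were in the weakest class, where the median change was 0.07 for them and 0.09 for the others. In the fourth class the medians were 0.08 and 0.02, in the seventh −0.02 and −0.11, and in the strongest, with 20 gene desert regions, −0.11 and −0.24. The residual SD of the fit was wider for gene desert regions than for the others in each class, for example 0.33 against 0.21 in the seventh.

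**Figure D5:**
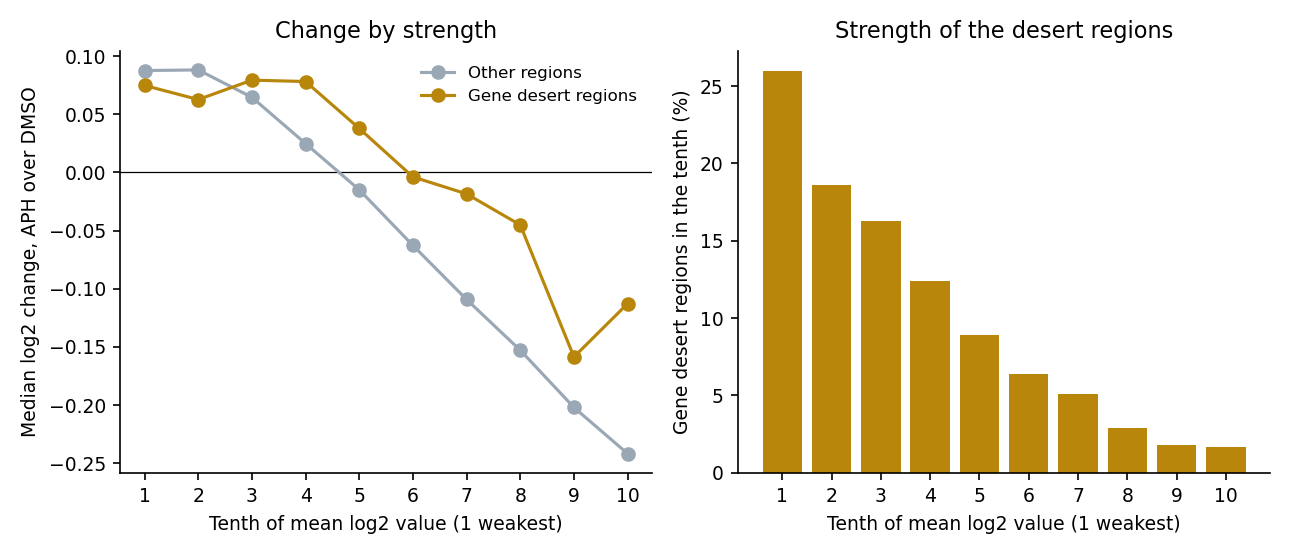
Left, median log2 change of APH over DMSO (y axis) in 10 equal classes of mean log2 value over all regions with a peak in every sample (x axis, 1 weakest), for gene desert regions and the others. Right, percent of the tested gene desert regions in each class. Both medians are lower in the strong classes, from 0.07 and 0.09 in the weakest class to −0.11 and −0.24 in the strongest.

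No gene desert region passed an adjusted p of 0.05 in either direction (limma, Benjamini-Hochberg; 0% of all regions tested passed in either direction). This depended on the model. With the replicate number as a block, 28 passed as higher and 26 as lower (2.30% and 2.14%, against 2.04% and 11.1% of all regions tested). At an unadjusted p of 0.05, 35 of the 1216 were higher in APH (2.88%, against 2.46% of all regions tested) and 23 were lower (1.89%, against 10.1%). In 49 every APH sample was above every DMSO sample (4.03%, against 4.21% of all regions tested), and in 42 every APH sample was below (3.45%, against 14.4%). By presence, 34 gene desert regions had a peak in all 3 APH samples and in no DMSO sample (0.908%, against 1.11% of all regions), and 5 had the reverse (0.134%, against 0.184%). Whatever the number of samples, 911 had peaks in APH only (24.3%, against 18.5% of all regions) and 330 in DMSO only (8.81%, against 7.03%). Gene desert regions were weaker than the others, as described above, and the part of strength in these shares was not tested. The counts at an unadjusted p of 0.05 moved with the scaling and with the samples used. With each sample centred on its median, 100 were higher (8.22%, against 6.16% of all regions tested in the same setting) and 28 lower (2.30%, against 9.82%). With quantile normalization, 65 were higher (5.35%, against 5.91%) and 60 lower (4.93%, against 4.60%). With the samples' median peak width as a covariate, 11 were higher (0.905%, against 0.863%) and 217 lower (17.8%, against 25.2%). The higher regions numbered 140 without DMSO replicate 2 (11.5%, against 7.67%) and 108 without APH replicate 3 (8.23%, against 5.78%), but 16 without DMSO replicate 3 (1.19%, against 1.30%), 15 without APH replicate 1 (1.22%, against 1.05%) and 12 without APH replicate 2 (0.978%, against 0.862%). The lower regions numbered 36 without APH replicate 2 (2.93%, against 8.75%) and from 18 to 28 without any other sample (1.37% to 2.07%, against 4.11% to 9.75%).

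Among gene desert regions with lower values in APH and no overlap of the groups, the 3 of smallest p all lay at ribosomal RNA genes on chromosome 21. The 45S gene encodes the precursor that is cut into RNAs of both subunits of the ribosome, and it is present in many near-identical copies, so that pairs placed at 1 copy are uncertain even where multiply mapped pairs were removed. The region with the smallest p, in RNA45SN1 (chr21:8433987-8434387), had values of 394, 529 and 366 in DMSO and of 239, 230.2 and 190.3 in APH, a log2 change of −0.95 ± 0.15 (SE, n = 3 per condition; limma adjusted p = 0.290). The next, in the 28S part of the same gene (RNA28SN1, chr21:8442197-8442557), had values of 152, 108 and 141 in DMSO and of 56.2, 65.5 and 73.9 in APH, a log2 change of −1.02 ± 0.18 (limma adjusted p = 0.290). The third (chr21:8441018-8441392), also in RNA28SN1, had 167, 245 and 176 in DMSO and 100.1, 114 and 97.7 in APH, a log2 change of −0.89 ± 0.16 (limma adjusted p = 0.290). They were chosen for groups that do not overlap, so that every APH value is below every DMSO value by construction. The sign of the 3 changes was the same under all 18 alternatives run, with adjusted p-values from 7.88e-07 to 0.886. Where groups do not overlap, leaving out a sample, adding a block or changing the pseudocount cannot turn the sign, so most of these alternatives could not have done so. All 3 passed the threshold with the samples' median peak width as a covariate, with adjusted p-values of at most 0.0047 in limma. All 3 also passed with the replicate number as a block (limma adjusted p from 1.14e-05 to 0.000353). The first also passed with each sample centred on its median (adjusted p = 0.0151), and the second without DMSO replicate 2 (adjusted p = 0.0257).

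The other tested regions of the gap between LOC102723475 and LOC101927345 also had negative changes. The gap held 21 gene desert regions, of which 12 had a peak in every sample and were tested, and all 12 had a negative log2 change, from −1.02 to −0.16 with a median of −0.65. In 10 of the 12 every APH sample was below every DMSO sample (14.4% of all regions tested), and 8 were lower at an unadjusted p of 0.05 (10.1% of all regions tested). The exceptions were the strongest region of all, described above, and a region at chr21:8453742-8454225 with values of 93.6, 79.8 and 116 in DMSO and 72.4, 90.5 and 73.1 in APH. A region of 662 bp outside the annotated genes (chr21:8234051-8234712) had values of 225, 229 and 202 in DMSO and 139, 153 and 93.7 in APH. The other 9 regions of the gap lacked a peak in at least 1 sample. One of these had a higher value in its only APH sample with a peak (23.1) than in the DMSO samples (21.1 and 22.2), and another had a peak in 1 APH sample only. These 12 regions lie close together, 5 of them in 1 copy of the repeated gene, and are not independent of each other. Without them, 15 of the 1204 other gene desert regions tested were lower at an unadjusted p of 0.05 and 35 were higher, where 10.1% and 2.46% of all regions tested were.

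Among gene desert regions with higher values in APH and no overlap of the groups, the 3 of smallest p were on chromosomes 8 and 22. Between PEX2, a gene of peroxisome assembly, and PKIA, an inhibitor of protein kinase A, a region at chr8:77310423-77310833 had values of 75.8, 103 and 70.2 in DMSO and 141, 160 and 120 in APH, a log2 change of 0.76 ± 0.18 (SE, n = 3 per condition; limma adjusted p = 0.290). A second region of the same gap (chr8:77902554-77902940) had values of 23, 33.1 and 22.2 in DMSO and 59.0, 53.9 and 40.7 in APH (log2 change 0.95 ± 0.23). The third (chr22:12691666-12692924) overlapped DUX4L44, a pseudogene of the multi-copy DUX4 family and hence uncertain in its copy, with values of 91.5, 97.6 and 105 in DMSO and 157, 128.9 and 159 in APH (log2 change 0.59 ± 0.15). The sign held in every alternative run for the 3. They too were chosen for groups that do not overlap, so leaving out a sample, adding a block or changing the pseudocount could not turn it. With the replicate number as a block, all 3 passed the threshold (limma adjusted p from 0.00104 to 0.00261). With the width covariate the log2 change of the first was 0.48 (limma adjusted p = 0.0515), and the region at DUX4L44 passed the threshold (limma adjusted p = 0.0116).

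The regions found in 1 condition only were weak. The strongest of the 34 with a peak in all APH and no DMSO samples was at chr22:12175030-12175262, with values of 51.0, 62.1 and 44.8. The next lay between OTOL1 and SI on chromosome 3 (32, 30.9 and 22.4) and between LOC105373397 and SOX11 on chromosome 2 (24.9, 33.7 and 25.2). The strongest of the 5 with the reverse pattern lay between ZNF37A and ZNF33B on chromosome 10, with DMSO values of 22.3, 28.1 and 23.1. It was followed by regions in LINC02755 on chromosome 11 (24.4, 20.5 and 23.1) and in LOC124904475 on chromosome 1 (22, 21.1 and 22.7). The lowest value that was called a peak was 15.1 to 15.5 per sample, and a site without a peak has no value in the files.

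At the 300 kb limit, the nearest regions inside it lay in LINC01411 between NSG2 and MSX2 (300.1 kb), between PRKD1 and G2E3 (300.2 kb) and between GPAT3 and NKX6-1 (300.3 kb), with mean values of 21.4, 34.3 and 24.4. The nearest regions outside it lay between SMIM21 and LOC105372204, between ZNF621 and CTNNB1 and between MTX2 and HNRNPA3, with mean values of 21.7, 44.8 and 62.0.

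By gap, the share of a sample's peaks that fell between 2 neighbouring coding genes was compared for 1835 gaps with a mean of at least 5 peaks, of which 401 held gene desert regions. No gap with such regions passed an adjusted p of 0.05 in either direction (limma; 0% of all gaps tested passed in either direction). With the replicate number as a block, 2 passed as higher and 1 as lower (4 and 1 of all 1835 gaps tested). At an unadjusted p of 0.05, 46 of the 401 were higher in APH (11.5%, against 6.1% of all gaps tested) and 9 were lower (2.24%, against 2.83%). The median log2 change was 0.07 for gaps with gene desert regions and −0.02 for all gaps tested. For the former it was 0.15 without APH replicate 3 and 0.12 without DMSO replicate 2, but 0.033 without APH replicate 1, 0.022 without APH replicate 2 and 0.0039 without DMSO replicate 3. With samples reduced to the same number of peaks, 11 of 343 were higher (3.21%, against 4.45% of all gaps tested in that setting) and 27 lower (7.87%, against 4.25%), and the median log2 change was −0.08, against 0 for all gaps. The higher gaps numbered 73 without APH replicate 3 (18.1%, against 7.68%), but 30 without DMSO replicate 1 (7.48%, against 4.59%), 28 without APH replicate 1 (7.11%, against 3.65%), 22 without APH replicate 2 (5.60%, against 4.18%) and 21 without DMSO replicate 3 (5.20%, against 4.59%). The last of these also gave 20 lower gaps (4.95%, against 2.24%).

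Among gaps with gene desert regions that were higher without overlap, the smallest p belonged to SULF2 to PREX1 on chromosome 20, between a heparan sulfate endosulfatase gene and a Rac exchange factor gene. It held 13, 17 and 12 peaks in DMSO and 25, 28 and 18 in APH, and the log2 change in share was 0.53 ± 0.12 (SE, n = 3 per condition; limma adjusted p = 0.196). Of its 37 regions, 10 were gene desert regions, so most of these peaks lay nearer than 300 kb to one of the genes. Next came ADCY8 to EFR3A on chromosome 8, with 8, 7 and 5 peaks in DMSO and 13, 13 and 11 in APH (2 gene desert regions of 16), and HNF4G to ZFHX4 on the same chromosome, with 11, 11 and 10 against 17, 20 and 16 (9 of 27). These 3 gaps, too, were chosen for shares that do not overlap between the groups. With equal peak numbers the log2 change in share was 0.26 for SULF2 to PREX1, 0.31 for ADCY8 to EFR3A, where it was otherwise 0.64, and 0.14 for HNF4G to ZFHX4, where it was otherwise 0.50. Over peaks at or above the median value it was 0.10 for SULF2 to PREX1.

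Among those that were lower without overlap, the smallest p belonged to the ribosomal RNA gene gap on chromosome 21, with 26, 27 and 26 peaks in DMSO and 22, 24 and 22 in APH (log2 change in share −0.38 ± 0.10, SE, n = 3 per condition; limma adjusted p = 0.196). It was followed by USP25 to CXADR on the same chromosome, with 10, 15 and 10 against 9, 10 and 8 peaks, and by HLX to DUSP10 on chromosome 1, with 10, 11 and 9 against 8, 10 and 7. The latter gaps had 4 and 2 gene desert regions. Of the 4 gaps with the most gene desert regions after IGH, CSMD3 to TRPS1 had 23, 29 and 21 peaks in DMSO and 32, 37 and 29 in APH (log2 change in share 0.24 ± 0.09), and KCNV1 to CSMD3 had 35, 37 and 25 against 45, 46 and 40 (0.26 ± 0.10). For KHDRBS3 to FAM135B the numbers were 28, 39 and 26 against 42, 45 and 27 (0.10 ± 0.12, and from 0.021 without APH replicate 2 to 0.24 without APH replicate 3), and for AGA to TENM3 they were 27, 36 and 23 against 34, 36 and 24 (−0.05 ± 0.11). None of these 4 passed the adjusted threshold, but over peaks at or above the median value CSMD3 to TRPS1 did, with a log2 change of 0.77 (limma adjusted p = 0.0416). That of the same gap was 0.13 over regions found in at least 2 samples and −0.13 with equal peak numbers, and that of KCNV1 to CSMD3 was 0.14 without DMSO replicate 3.

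By chromosome, the median log2 change of the tested gene desert regions was highest on chromosome 8, at 0.13 over 132 regions, where the other regions had a median of 0.03. It was lowest on chromosome 21, at −0.47 over 17 regions, where the other regions had a median of −0.12 and where 12 of the 17 lay in the ribosomal RNA gene gap. On chromosomes 6 and 2 the medians were 0.12 and 0.10, and on chromosomes 22 and 20 they were −0.17 and −0.14. The other chromosomes lay between −0.02 and 0.08. These medians were not tested against each other.

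As a check of the label, peaks lay within 1 kb of an end of the epithelial genes KRT8, KRT18 and EPCAM in all 6 samples, and of CDH1 in none. Of the intestinal genes, CDX2 and LGR5 had such a peak in 6 samples and CDX1 and VIL1 in none. The mesenchymal gene VIM had none. Of the genes of other cell types, CD3E, PECAM1 and ALB had none, PTPRC had one in 2 samples and COL1A1 in 6.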

How the data were processed

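ATAC-seq peaks of 6 RKO samples (3 DMSO, 3 APH) were analysed. Per the study's methods and the labels, the authors aligned read pairs to hg38 with BWA 0.7.12, removed duplicates and pairs that did not match or mapped to several places, extended alignments to 200 bp, counted them in bins of 32 nt and called peaks in each sample with MACS2 2.1.0 without a control. The deposited files give, for each peak, its position and a signal value, the mean of the sample's signal map over the peak. No scaling to depth is stated, and read numbers are unknown. Peak numbers of 64511 to 84510 per sample are the only measure of depth used here, and the number of samples limits the precision.

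Peaks were merged at 1 bp of overlap. A sample's value in a region was the width-weighted mean of its peaks there. Distances were taken from 18973 protein-coding genes of chromosomes 1 to 22 in the RefSeq table (GRCh38.p14). Another 153 protein-coding genes, listed with coordinates of other scaffolds, were left out, and keeping them gives 3737 gene desert regions. Regions with a peak in every sample were tested with limma 3.58.1 (R 4.3.3) on log2(value + 1), with an intensity trend and Benjamini-Hochberg adjustment over all such regions. Gaps between coding genes were tested likewise on log2((peaks + 1)/peaks of the sample), where they held a mean of at least 5 peaks. Single values were compared by exact permutation tests, and desert against other peaks within samples by exact sign-flip tests. The procedure was also run on simulated data, with noise drawn independently for each region or gap and sample. These data held no shift common to a sample, so they do not bear on such shifts. The study describes its 3 samples per condition as independent experiments. The labels do not say that equal replicate numbers are pairs, so the main fits used no block. Fits with the replicate number as a block are given as an alternative.

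Named regions are the 10 strongest with a peak in every sample (1 of them is not reported here), the farthest from a gene, the 3 of smallest p in each direction whose groups do not overlap, and the 3 strongest found in 1 condition only. Named gaps are the 5 with the most gene desert regions and the 3 of smallest p in each direction whose shares do not overlap, and named runs the 3 with the most regions. Regions with a gene start and those of the ribosomal RNA gene gap were singled out after their values were seen. The members and lists were chosen with earlier results of these data known. Alternatives changed the distance, the gene set, the value minimum, the number of peaks, the merging overlap, the support needed, the pseudocount, the scaling, and the chromosomes and samples used. The sequences of peaks themselves were not analysed here, since the genome at hand was of another build.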

Additional observations from a re-analysis of the deposited data

How the results depend on the processing

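The relative value of desert peaks kept its sign under all 17 alternatives, among them the replicate block, which could not change it. The lower value and width of desert peaks kept their sign under all 16. With 1 sample left out, the latter reached only the smallest p that 5 samples allow (0.0625), with log2 ratios from −0.80 to −0.78 for value and from −0.17 to −0.14 for width. When samples were reduced to the same number of peaks, the APH minus DMSO difference became −184.7 in number, −0.29 percentage points in share, −36.0 kb in length and 3.30 in mean value. The share difference was −0.00949 with distance from every RefSeq gene, and from −0.00311 to 0.40 with 1 sample left out. The mean value of desert regions found in all samples differed by −0.48 at a distance of at least 500 kb, −2.42 with every RefSeq gene, −6.12 with peaks at or above the median value, −1.66 with regions in at least 2 samples, −0.38 without chromosome 8, and from −3.44 to 5.48 with 1 sample left out. The cause was not tested.

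The count of gene desert regions past the adjusted threshold was 0 in each direction. It became 1 higher with regions in at least 2 samples (122 of all 83099 regions tested), 1 lower with samples centred on their median (also 1 of all regions), 0 to 1 lower with 1 sample left out (at most 2 of all regions), and 1 higher and 64 lower with the median peak width as a covariate (0.0822% and 5.26%, against 0.0977% and 10.6% of all regions tested). With this covariate the lower regions included those at LINC02226, RIOK2 to RGMB, LINC01508, SLC10A2 to DAOA and DCN to BTG1, with limma adjusted p-values from 0.00141 to 0.0140. For gaps with gene desert regions, 3 higher and 2 lower passed with peaks at or above the median value (3 and 3 of all 427 gaps tested), 1 lower with every RefSeq gene (1 of 406) and 1 lower (2 of 1506) with samples reduced to the same number of peaks, which was the ribosomal RNA gene gap (limma adjusted p = 0.0411). With the replicate number as a block, 28 regions were higher and 26 lower (2.30% and 2.14%, against 2.04% and 11.1% of all regions tested), and 2 gaps were higher and 1 lower (4 and 1 of all 1835). These included the 3 named lower regions at ribosomal RNA genes (limma adjusted p from 1.14e-05 to 0.000353), the 3 named higher regions (0.00104 to 0.00261), the LINC02226 region (0.0398) and the gap SULF2 to PREX1 (0.0485). The deviations of same-numbered samples from their group means correlated at −0.01, 0.48 and 0.52. Those of differently numbered samples correlated from −0.56 to 0.26, and replicate 1 of DMSO correlated best with replicate 3 of APH (0.13). The labels do not state pairs, and these values do not settle whether the samples are paired. For the single values, the mean of the paired differences equals the difference of means, so the block could not change a sign. The paired exact sign-flip p was 0.25, the smallest that 3 pairs can give, for desert peak number, share, length, mean value and relative value. All same-numbered pairs thus differed in the same direction in each of these.

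The median log2 change of gene desert regions turned negative with the width covariate (−0.20) and with peaks at or above the median value (−0.036), and ranged from −0.046 to 0.18 with 1 sample left out, negative without DMSO replicate 3 (−0.033) and without APH replicate 2. That of gaps was −0.023 with every RefSeq gene and −0.082 with equal peak numbers. Quantile normalization turned the log2 change of 5 named regions to 0.060 (strongest, chromosome 21), 0.070 (RIOK2 to RGMB), 0.22 (LINC01508), 0.16 (DAOA to EFNB2) and 0.024 (DCN to BTG1). LINC01508 was also at 0.0076 with samples centred, and ranged from −0.19 to 0.26 with 1 sample left out, as DAOA to EFNB2 did from −0.17 to 0.085. KCNV1 to CSMD3 was at −0.028 with the width covariate. Among gaps, the IGH gap turned to 0.058 with gaps centred and to 0.0010 with regions in at least 2 samples, and ranged from −0.081 to 0.093 with 1 sample left out. AGA to TENM3 turned to 0.020 with gaps centred and ranged from −0.14 to 0.050. With equal peak numbers CSMD3 to TRPS1 was at −0.13 and KHDRBS3 to FAM135B at −0.017. The files give no reads, so sites below a sample's lowest peak value of 15.1 to 15.5 cannot be seen.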

Other observations

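Chromosome X was outside the rule. Of its 3020 regions, 193 had a midpoint at least 300 kb from every protein-coding gene, with a median value of 27.2, and 70 of these had a peak in all 6 samples. In the 2 windows left out on chromosomes 8 and 5, 125 regions would otherwise have met the rule. Gaps that hold the widest stretch without peaks of their chromosome numbered 14 among those with gene desert regions and held 154 of these regions. The most were in the gap from ZNF337 to LOC124904970 on chromosome 20, with 27, and in that from ZNF37A to ZNF33B on chromosome 10, with 21. In the gap from LINC02798 to H3-7 on chromosome 1, 4 gene desert regions lay in 22.4 Mb.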
